A study of Mus musculus with 4 samples.

Results

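Vessel genes and angiogenic signals, 10 of the 32285 genes in the deposited matrices, were followed through the cells of mouse testicular organoids (TOs) and mouse testes. They were picked by name for their known role in blood vessels, and each symbol matched 1 entry. Pecam1, Cdh5 and Vwf encode the adhesion molecule CD31, vascular endothelial cadherin and von Willebrand factor of endothelial cells. Kdr and Flt1 encode the VEGF receptors VEGFR2 and VEGFR1, and Tek and Tie1 the receptors TIE2 and TIE1. Vegfa, Angpt1 and Angpt2 encode the ligands VEGF-A, angiopoietin 1 and angiopoietin 2.

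Blood vessels are lined by endothelial cells, which are held together by vascular endothelial cadherin and CD31. VEGF-A from neighboring cells binds VEGFR2 to drive the growth of endothelial cells, while VEGFR1 binds VEGF-A tightly and restrains it. Angiopoietin 1, made mainly by mural and mesenchymal cells, activates TIE2 and steadies the vessel, and angiopoietin 2 modulates the same receptor. In the testis, vessels run in the interstitium between the tubules, beside the Leydig cells, and a culture without circulation receives its oxygen and nutrients by diffusion.

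The scRNA-seq data came from 2 TO libraries and 2 testis libraries of ICR mice, made on the 10x Genomics Chromium platform from unsorted cells, and no transgene was named for either group. For the TOs, a suspension of single cells from the testes of neonatal pups was aggregated in microwells, embedded in basement membrane extract and cultured at an air-liquid interface in medium with serum replacement, FSH, testosterone and antioxidants. The series design gives an age of 28 days for TOs and testes, while the dissociation protocol speaks of TOs at day 21. The organoids came from 2 batches, and which library holds which batch is not stated, so p-values measure the spread between these libraries only.

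After the filters, 9802 and 8713 TO cells and 9867 and 9516 testis cells were kept, of which 8909 and 8019 against 2533 and 1537 were somatic. Somatic cells were deeper in TOs, with a median of 5309 and 7464 UMIs per cell against 3112 and 3801, so levels were given as CPM, counts of a gene scaled to the summed UMIs of the cells. Between 30 and 55 barcodes were shared by each pair of libraries, at most 0.44% of the smaller library. The cell types were rebuilt here in each library by itself, without the 10 genes, so a difference from the study may come from these names. In TO replicate 2, 22.4% of the cells stayed unnamed, against 1.84% to 4.45% in the other libraries. Somatic cells of the testes held spermatid markers at 2002 and 2230 CPM, against 4.05 and 4.93 CPM in TOs.

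The first question was whether TOs kept endothelial cells. None of the 8909 and 8019 somatic cells of TO replicates 1 and 2 lay in an endothelial cluster. At the limit used here for a count of 0, cells in such a cluster could make up to 0.0337% and 0.0374%. The exact 95% Clopper-Pearson upper limits were 0.0414% and 0.0460%. Neither limit covers endothelial cells that the clustering left in other or unnamed clusters. A joint embedding of the libraries gave TO replicates 1 and 2 endothelial shares of 0.158% and 0.101%. Naming each cell by itself gave 0.0224% and 0.137%. In the testes, 131 of 2533 and 87 of 1537 somatic cells were endothelial, or 5.17% (95% Clopper-Pearson interval 4.34–6.11) and 5.66% (4.56–6.94). Both testis libraries lay above both TO libraries, with a mean difference of -5.42 percentage points (2 libraries against 2, exact permutation test, two-sided p = 0.33, which is as low as such a design can go). These intervals and limits reflect counting alone.

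The label endothelial was given from 12 markers that are not among the 10 genes, such as the tight junction gene Cldn5 and the sialomucin gene Emcn. The endothelial cells of the testes held all 12, at 6025 and 6331 CPM in sum. As these markers named the clusters, this level follows from the naming and is no separate check of the label. Over all somatic cells the list stood at 37.5 and 32.6 CPM in TOs and at 401 and 475 CPM in testes, and 11 and 10 of the 12 markers had a UMI in TOs. The marker Myct1 was at 0 in both TO libraries and Adgrl4 at 0 in TO replicate 2. A joint embedding of the 4 libraries placed 14 and 8 TO cells in the endothelial cluster, beside 131 and 88 testis cells. In these TO cells Flt1, Pecam1, Tek, Tie1 and Vwf were at 0, Kdr had 1 UMI in each library, Cdh5 0 and 3 and Sox17 4 and 11 UMIs, and the 12 markers stood at 72.3 and 178 CPM, against 6014 and 6316 CPM in the testis cells. Calling each cell by itself, from at least 3 of the 12 markers, gave 2 and 11 endothelial cells in TOs and 128 and 85 in testes. Cells with UMIs of at least 3 of Kdr, Pecam1, Cdh5, Tek, Tie1 and Vwf numbered 2 and 4 in TOs and 99 and 65 in testes. Among barcodes that the filters removed there were 4 and 2 such barcodes in TOs and 24 and 26 in testes.

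Pericytes, the mural cells that wrap capillaries, were named in the testes with 89 and 145 cells, and no TO cluster took the name. The joint embedding, however, placed 51 and 64 TO cells in its pericyte cluster, beside 124 and 85 testis cells. These TO cells held the pericyte markers at 127 and 263 CPM, with Notch3 at 31 and 118 UMIs and Rgs5 at 0 and 7 UMIs, and the testis cells held them at 3294 and 4768 CPM. Angpt1 had 14 and 28 UMIs in these TO cells. Their 6 markers, such as Rgs5 and Kcnj8, were all detected in the somatic cells of the 4 libraries, at 77.0 and 80.6 CPM in TOs and 129 and 189 CPM in testes.

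Endothelial cells of the testes carried the receptor and junction genes at levels that no other cell type reached. Flt1 stood at 561 and 572 CPM in the endothelial cells of testis replicates 1 and 2. Kdr stood at 528 and 281 CPM, and Cdh5 at 482 and 501 CPM. The next highest named type held Flt1 at 11.99 and 9.25 CPM (spermatids), and the pericytes at 9.92 and 4.27 CPM.

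Pecam1 reached 309.8 and 274 CPM in the same endothelial cells, and Tek 213 and 178 CPM. Tie1, a receptor without a well-defined ligand of its own, was at 67.5 and 64.3 CPM. For these 3 genes the testis libraries lay close together. Vwf, the glycoprotein gene whose product carries clotting factor VIII, differed more between them, at 348 and 127 CPM. Within endothelial cells the ligand genes lay below the receptor genes, Cdh5, Pecam1 and Vwf. Vegfa was at 13.8 and 33.8 CPM, Angpt1 at 30.7 and 40.6 CPM and Angpt2 at 21.5 and 32.1 CPM. Beside other testis types this was not low, as Vegfa averaged 22.1 CPM in stromal cells and 10.7 CPM in Leydig cells of testes.

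**Figure D1:**
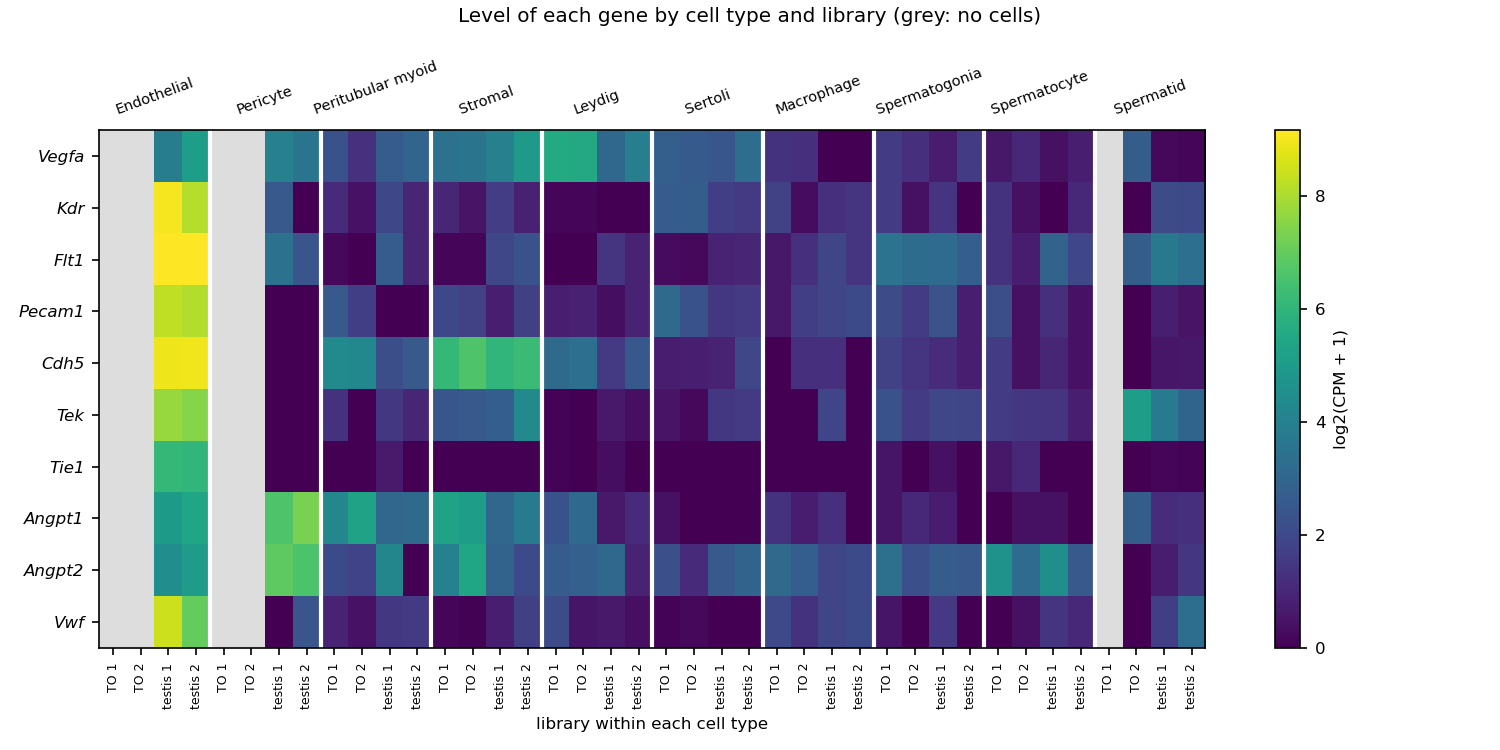
Level of each of the 10 genes, as log2(CPM + 1) in color, by cell type and library (columns), with grey where a library has no cells of the type. The bright columns are the endothelial cells of testis replicates 1 and 2, where Flt1 stood at 561 and 572 CPM, and TOs have no such columns.

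In the GENCODE vM21 annotation of GRCm38, Kdr lies at chr5:75932827-75978458 (minus strand), Flt1 at chr5:147561604-147726011 (minus strand), Tek at chr4:94739289-94874976 (plus strand) and Tie1 at chr4:118471191-118490061 (minus strand). The promoters of these 4 receptor genes are shown because these genes share the endothelial cells and fell together in TOs. RefSeq windows were found for 5 of the 10 genes (GRCm38.p6), and each is given here as the 250 bases before the RefSeq start of the gene, 5′ to 3′ on the strand of the gene. Capitals mark GGAA and its reverse complement TTCC, the core bound by ETS factors, a family that includes Erg and Fli1 of endothelial cells. The windows are Kdr, chr5:75978456-75978705 on the minus strand, Flt1, chr5:147726012-147726261 on the minus strand, Tek, chr4:94739039-94739288 on the plus strand, and Tie1, chr4:118489850-118490099 on the minus strand.
Kdr: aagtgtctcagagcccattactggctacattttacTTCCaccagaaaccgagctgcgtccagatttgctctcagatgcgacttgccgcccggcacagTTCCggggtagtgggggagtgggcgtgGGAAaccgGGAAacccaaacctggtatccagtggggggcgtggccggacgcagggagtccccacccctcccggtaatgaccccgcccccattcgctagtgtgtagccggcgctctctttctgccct
Flt1: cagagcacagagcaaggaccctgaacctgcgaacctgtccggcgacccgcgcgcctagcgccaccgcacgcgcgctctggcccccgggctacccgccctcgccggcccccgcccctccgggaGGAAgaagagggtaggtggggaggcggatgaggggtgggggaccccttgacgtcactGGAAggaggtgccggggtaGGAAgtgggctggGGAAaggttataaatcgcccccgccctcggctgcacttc
Tek: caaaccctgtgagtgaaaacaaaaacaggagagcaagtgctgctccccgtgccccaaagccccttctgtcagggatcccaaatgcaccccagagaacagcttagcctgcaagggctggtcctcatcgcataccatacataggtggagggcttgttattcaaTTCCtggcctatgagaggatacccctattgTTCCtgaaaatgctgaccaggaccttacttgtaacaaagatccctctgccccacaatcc
Tie1: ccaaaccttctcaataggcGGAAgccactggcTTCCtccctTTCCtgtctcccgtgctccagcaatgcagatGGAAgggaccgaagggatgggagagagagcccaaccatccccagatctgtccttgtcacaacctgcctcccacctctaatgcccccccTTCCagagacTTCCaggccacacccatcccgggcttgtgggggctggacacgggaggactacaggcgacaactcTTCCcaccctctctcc

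GGAA or TTCC occurred 4 times in the Kdr and Flt1 windows, 2 times in Tek and 7 times in Tie1. The 2 Vegfa windows held 6 and 2. Of 32841 mouse promoter windows of this length, 93.5% held at least 1 match, with a median of 3, and 8.69% held at least 6, so the counts of Kdr, Flt1 and Tek are near those of any promoter. A match is a stretch of letters and not a measured binding site.

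The second question was how much RNA of each gene was left when all somatic cells of a library were summed. In such sums, fewer cells of a type and less RNA per cell cannot be told apart. Of the 10 genes, 6 fell in TOs (edgeR quasi-likelihood test, Benjamini-Hochberg adjusted p below 0.01 and absolute log2 fold change above 1) and none rose, beside 17.3% of 20095 genes called, with 15.4% that fell and 1.93% that rose.

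The genes of both VEGF receptors fell. Flt1 had 7 and 10 UMIs (0.12 and 0.15 CPM) in the somatic cells of TO replicates 1 and 2, against 391 and 351 UMIs (37.3 and 41.8 CPM) in testis replicates 1 and 2. Both TO libraries were far below both testis libraries, with a log2 fold change of -8.00 ± 0.36 (SE, adjusted p = 0.000164, edgeR). Kdr stood at 3.59 and 2.08 CPM in TOs and at 34.2 and 20.4 CPM in testes. The groups did not overlap, and the log2 fold change was -3.15 ± 0.40 (adjusted p = 0.00175, edgeR).

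Tek, which encodes the receptor of the angiopoietins, was at 1.74 and 2.10 CPM in TOs and at 15.1 and 15.8 CPM in testes, and fell by 2.86 ± 0.35 on the log2 scale (adjusted p = 0.00153, edgeR). Tie1 was close to absent, with 2 and 0 UMIs in TOs against 46 and 38 UMIs in testes. Its pooled level was 277 times higher in testes, with a 95% counting interval of 74.2 to 2322 (adjusted p = 0.00121, edgeR). Each TO library lay below each testis library for both receptors.

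Pecam1 was at 3.69 and 2.26 CPM in TOs and at 20.03 and 20.5 CPM in testes, a log2 fold change of -2.64 ± 0.34 (adjusted p = 0.00178, edgeR). Vwf was at 1.20 and 0.24 CPM in TOs and at 22.4 and 10.1 CPM in testes. It had a log2 fold change of -4.40 ± 0.78 (adjusted p = 0.00641, edgeR), and leaving out testis replicate 1 or 2 ended this call (adjusted p = 0.0291 and 0.0111, edgeR). The TO and testis libraries did not overlap for either gene.

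Cdh5 was the exception among the vessel genes. The gene lies at chr8:104101625-104144511 on the plus strand of GRCm38 and overlaps Gm29682 on the other strand. It stood at 26.1 and 48.9 CPM in the somatic cells of TOs and at 40.1 and 49.5 CPM in testes. TO replicate 2 lay between the testis libraries, and the log2 fold change was -0.09 ± 0.35 (adjusted p = 0.86, edgeR).

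**Figure D2:**
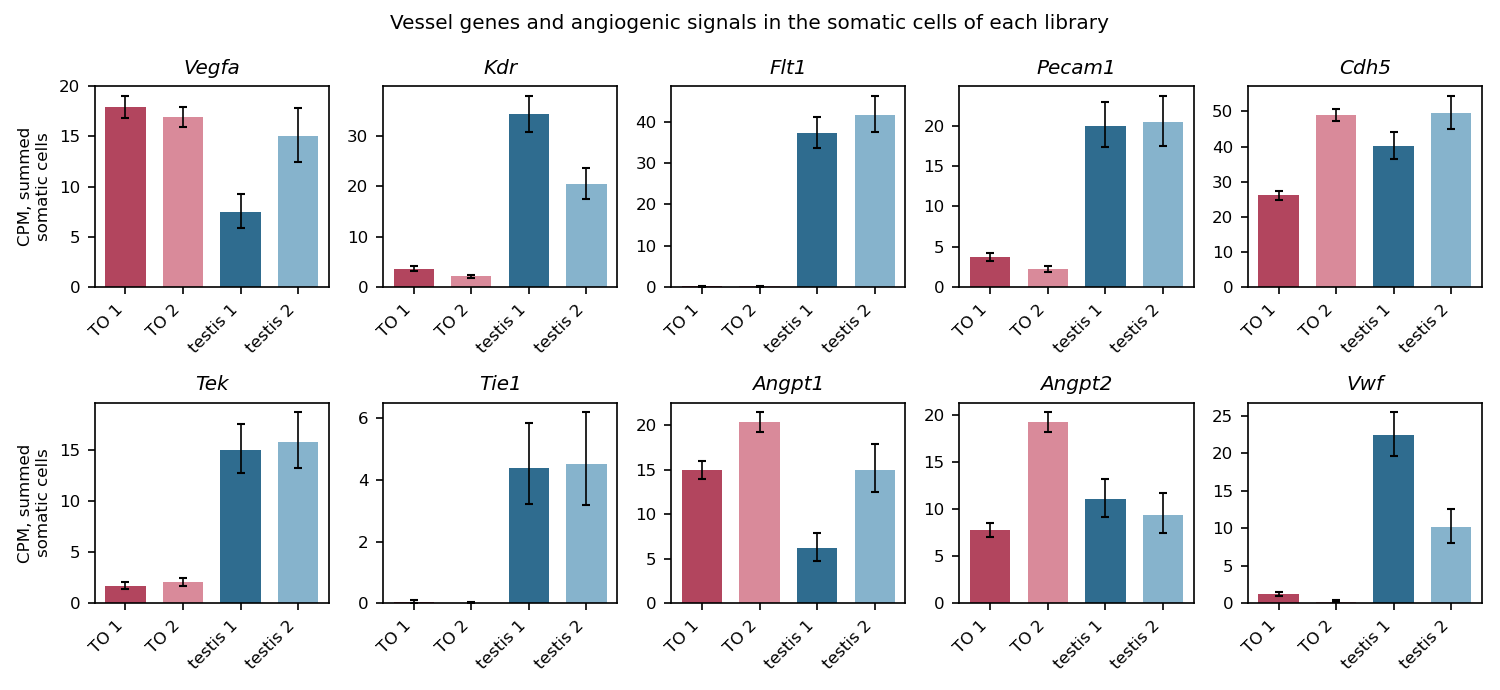
CPM of each gene (vertical axis, linear from 0) in the summed somatic cells of TO 1, TO 2, testis 1 and testis 2, with 95% Poisson intervals of the counts. Flt1, Kdr, Tek, Tie1, Pecam1 and Vwf are lower in both TO libraries, while Cdh5 overlaps at 26.1 and 48.9 against 40.1 and 49.5 CPM.

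The sums were repeated without the endothelial cells and pericytes of the testes, an alternative chosen after seeing the data. TOs had no cells of either name, so RNA was taken from the testis sums only and a shift upward was built in. Kdr, Pecam1 and Cdh5 then had positive log2 fold changes of 1.52, 1.59 and 1.62, none of which passed the test (adjusted p = 0.0962, 0.0752 and 0.0206, edgeR). Tek and Vwf stood at -0.44 and -0.29, and Tie1 was too low to test. Flt1 remained lower in TOs, at -3.65 ± 0.65 (adjusted p = 0.00523, edgeR). The remaining Flt1 of testis somatic cells lay at 0.89 to 5.38 CPM in the myoid, stromal, Leydig and Sertoli cells and macrophages, which also held the spermatid markers at 1246 to 3448 CPM. The part of spermatid RNA in it was not tested.

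The Cdh5 RNA of TOs lay in stromal cells, the group with Pdgfra, Col1a1 and Dcn. Stromal cells held 77.5% and 77.6% of the Cdh5 UMIs of TO replicates 1 and 2. In the testes, endothelial cells held 71.4% and 67.9% and stromal cells 20.5% and 22.0%. In CPM, stromal cells of TOs were at 68.1 and 99.5 CPM and those of testes at 64.6 and 75.7 CPM, so the groups overlapped (log2 fold change 0.39 ± 0.27, adjusted p = 0.324, edgeR). Background Cdh5, taken from macrophages, was at 0 and 1.34 CPM in TOs and at 1.38 and 0 CPM in testes.

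The stromal cells with Cdh5 rarely held UMIs of the other vessel genes. Of 918 and 1560 such cells in TOs, 0.436% and 0.385% also had Kdr, 1.31% and 1.86% Pecam1 and 2.07% and 3.33% Tek. Tie1 was found in none of them, which allows up to 0.327% and 0.192%. Of the 99 and 77 endothelial cells with Cdh5 in testes, 71.7% and 67.5% had Kdr and 73.7% and 75.3% Pecam1, at median depths of 4972 and 6046 UMIs against 4686 and 7371.5 UMIs in the TO cells. The 75 and 80 stromal cells with Cdh5 in testes also had 0 cells with Kdr or Pecam1, which allows up to 4% and 3.75%.

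Within the stromal cells, Cdh5 was uneven. Among the 9 stromal clusters of at least 50 cells in each TO library it ranged from 6.08 to 112 CPM and from 17.1 to 135 CPM. The highest clusters were led by Clec3b and Entpd2 in TO replicate 1 and by Slc24a2 and Adam12 in TO replicate 2. In testis replicate 1 the higher of the 2 stromal clusters, at 106 CPM, was also led by Slc24a2.

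Peritubular myoid cells, the contractile cells around the tubules, showed a rise of Cdh5. They held 19.3 and 18.2 CPM in TOs and 3.59 and 4.92 CPM in testes, with no overlap. The log2 fold change was 2.11 ± 0.47 (adjusted p = 0.00577, edgeR), beside 22.1% of 13068 genes called in these cells, 3.11% that rose and 19.0% that fell. The call was lost without TO replicate 1, TO replicate 2 or testis replicate 1 (adjusted p = 0.0643, 0.0513 and 0.022, edgeR) and with DESeq2 (adjusted p = 0.0258). Pecam1 had 38 UMIs in the myoid cells of TOs and 0 in those of testes. Of these, 32 were in TO replicate 1 (4.82 CPM) and 6 in TO replicate 2 (2.22 CPM). The pooled TO level was 3.65 times a floor of 3 counts over the testis group. This ratio leaves out the counting error of the TO UMIs, so it is no lower limit. Pecam1 did not enter the test in myoid cells. Stromal cells of TOs held Cdh5 at 68.1 and 99.5 CPM, and how much stromal RNA the myoid sums held was not tested.

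In TOs, Kdr lay outside any endothelial cluster. One small cluster in each TO library, of 68 and 78 cells, held 45.3% and 58.3% of all Kdr UMIs of its library. Its Kdr level was 220.0 and 117 CPM, and 51.5% and 44.9% of its cells had a Kdr UMI, against 1.85% and 0.144% of macrophages at median depths of 6847 and 9049 UMIs against 6326.5 and 5986.5 UMIs. Sertoli cells held another 34.5% and 28.1% of the Kdr UMIs.

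This cluster was led by genes of epithelia, among them Wfdc2, the transcription factor gene Pax8 and the claudin gene Cldn3, and it was left unnamed. Pax8 was at 433 and 551 CPM and the Sertoli cell genes Wt1 and Cldn11 at 899 and 583 CPM and at 666 and 577 CPM. Sox17, one of the 12 endothelial markers, was at 309 and 252 CPM, below the 380.4 and 572 CPM of testis endothelial cells. Flt1, Pecam1 and Cldn5 had no UMI in the cluster, which allows up to 4.41% and 3.85% of cells with a UMI and does not limit the share that expresses these genes.

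**Figure D3:**
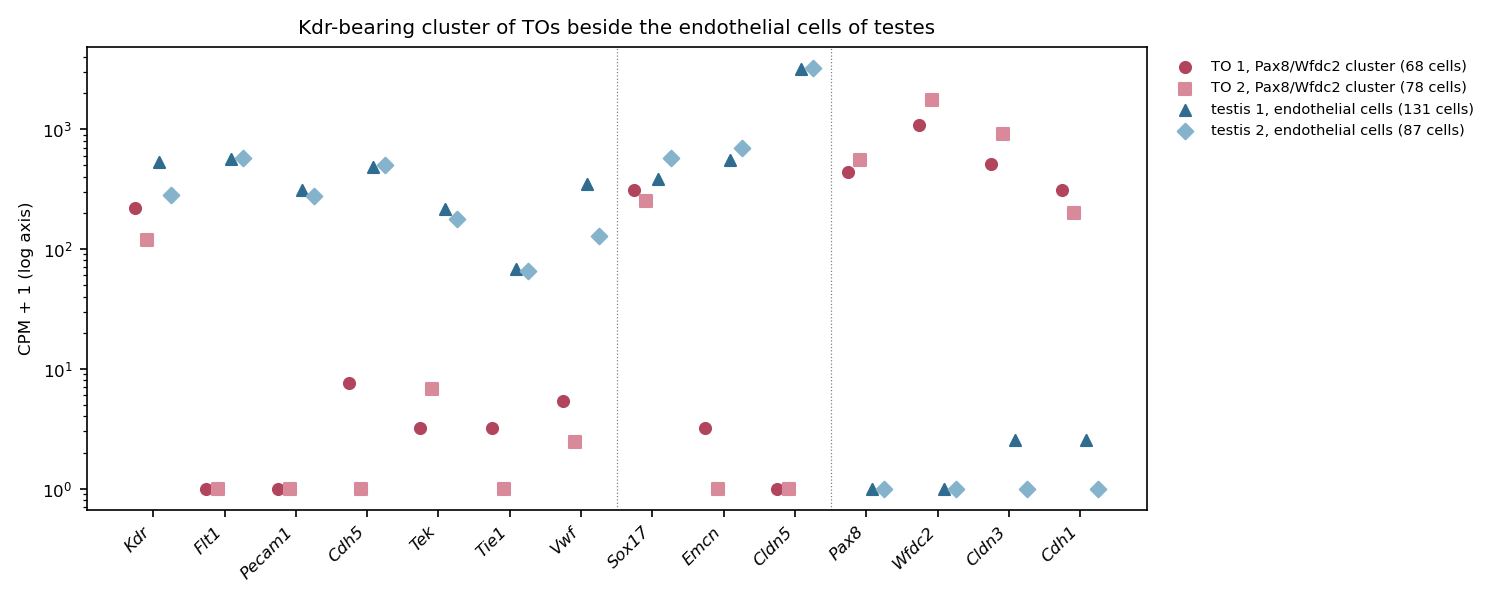
Level of vessel genes (left), 3 endothelial markers (middle) and epithelial genes (right), as CPM + 1 on a log axis, in the unnamed cluster of TO 1 and TO 2 and in the endothelial cells of testis 1 and testis 2. Kdr at 220.0 and 117 CPM and Sox17 at 309 and 252 CPM are high in the unnamed cluster, while Flt1, Pecam1 and Cldn5 are at 0.

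Kdr and Pecam1 were also seen at a low level in Sertoli cells, which nurse the germ cells. Kdr was at 5.29 and 5.52 CPM in TOs and at 2.22 and 1.92 CPM in testes (log2 fold change 1.47 ± 0.52, adjusted p = 0.0539, edgeR). Pecam1 was at 8.04 and 3.96 CPM against 1.78 and 1.92 CPM (1.85 ± 0.63, adjusted p = 0.0467, edgeR). The libraries did not overlap for either gene, yet neither passed the test, and of the 4 genes testable in Sertoli cells none was called, beside 24.7% of all 13852 genes (8.12% rose and 16.6% fell). When every gene with at least 1 count was kept, Pecam1 passed (log2 fold change 2.01, adjusted p = 0.00696, edgeR).

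The third question was whether the ligands that address vessels remained. Vegfa lies at chr17:46016993-46032369 on the minus strand of GRCm38, Angpt1 at chr15:42424723-42676977 (minus strand) and Angpt2 at chr8:18690263-18741562 (minus strand). The last overlaps Mcph1 on the other strand, and Angpt1 overlaps Gm17473 on the other strand. Vegfa was present in the somatic cells of every library, at 18.0 and 16.9 CPM in TOs and at 7.44 and 15.0 CPM in testes. Both TO libraries were higher than both testis libraries, but the log2 fold change of 0.78 ± 0.37 did not pass the test (adjusted p = 0.156, edgeR).

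Leydig cells, the steroid-making cells of the interstitium, held the largest share of the Vegfa UMIs. They held 71.8% and 45.8% of its UMIs in TO replicates 1 and 2, compared with 29.9% and 35.6% in the testis libraries. In TO replicate 2, unnamed cells held another 26.2%. Stromal cells followed, with 16.0% and 23.2% in TOs and 24.1% and 27.4% in testes. Such shares also follow the number and depth of the cells. In CPM, stromal cells of testes averaged 22.1 CPM and Leydig cells of testes 10.7 CPM, so Leydig cells did not lead there.

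In Leydig cells Vegfa rose in TOs. It was at 47.7 and 45.6 CPM in the 1371 and 857 Leydig cells of TOs and at 7.24 and 14.2 CPM in the 564 and 337 Leydig cells of testes. The TO values lay together and far above both testis values, with a log2 fold change of 2.04 ± 0.36 (adjusted p = 0.00894, edgeR). It was the only call among the 4 of the 10 genes that could be tested in these cells, beside 12.7% of all 14710 genes called and 1.73% that rose. Without testis replicate 1 the log2 fold change was 1.68 and the adjusted p 0.0164 (edgeR), which ended the call.

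A Vegfa UMI was found in 36.2% and 39.7% of TO Leydig cells and in 4.26% and 12.5% of testis Leydig cells. Leydig cells were deeper in TOs, with a median of 11886 and 13746 UMIs against 6197.5 and 9829, and after thinning each cell to 1500 UMIs the shares were 6.79% and 6.07% against 1.24% and 2.97%. Macrophages had Vegfa in 1.11% and 0.865% of cells in TOs and in none of the 233 and 149 cells in testes, which allows up to 1.29% and 2.01%. Across Leydig clusters of at least 50 cells, Vegfa ranged from 22.0 to 65.3 CPM in the 5 clusters of TO replicate 1 and from 44.1 to 61.6 CPM in the 3 clusters of TO replicate 2. Each of these lay above the single Leydig cluster of either testis library.

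Sertoli cells, the other type often named as a source of Vegfa, held it at 5.77 and 5.10 CPM in TOs and at 4.44 and 8.63 CPM in testes. The libraries overlapped, with a log2 fold change of -0.02 ± 0.47 (adjusted p = 0.973, edgeR). The effect of the TO on Vegfa differed between Leydig and Sertoli cells by 2.37 ± 0.40 on the log2 scale (interaction term, adjusted p = 0.00633, edgeR), beside 5.61% of 16016 genes called in this comparison, 2.92% with a positive and 2.69% with a negative difference. Leaving out TO replicate 1, testis replicate 1 or testis replicate 2 kept the size, at 2.31 to 2.40, but ended the call (adjusted p = 0.0138, 0.038 and 0.0235, edgeR).

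In stromal cells the values ran the other way, with Vegfa at 9.66 and 10.4 CPM in TOs and 15.1 and 29.2 CPM in testes. This did not pass the test (log2 fold change -1.01 ± 0.38, adjusted p = 0.089, edgeR). In peritubular myoid cells Vegfa was at 3.92 and 1.48 CPM against 5.38 and 6.89 CPM (-1.08 ± 0.63, adjusted p = 0.223, edgeR). The groups were apart in both types.

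**Figure D4:**
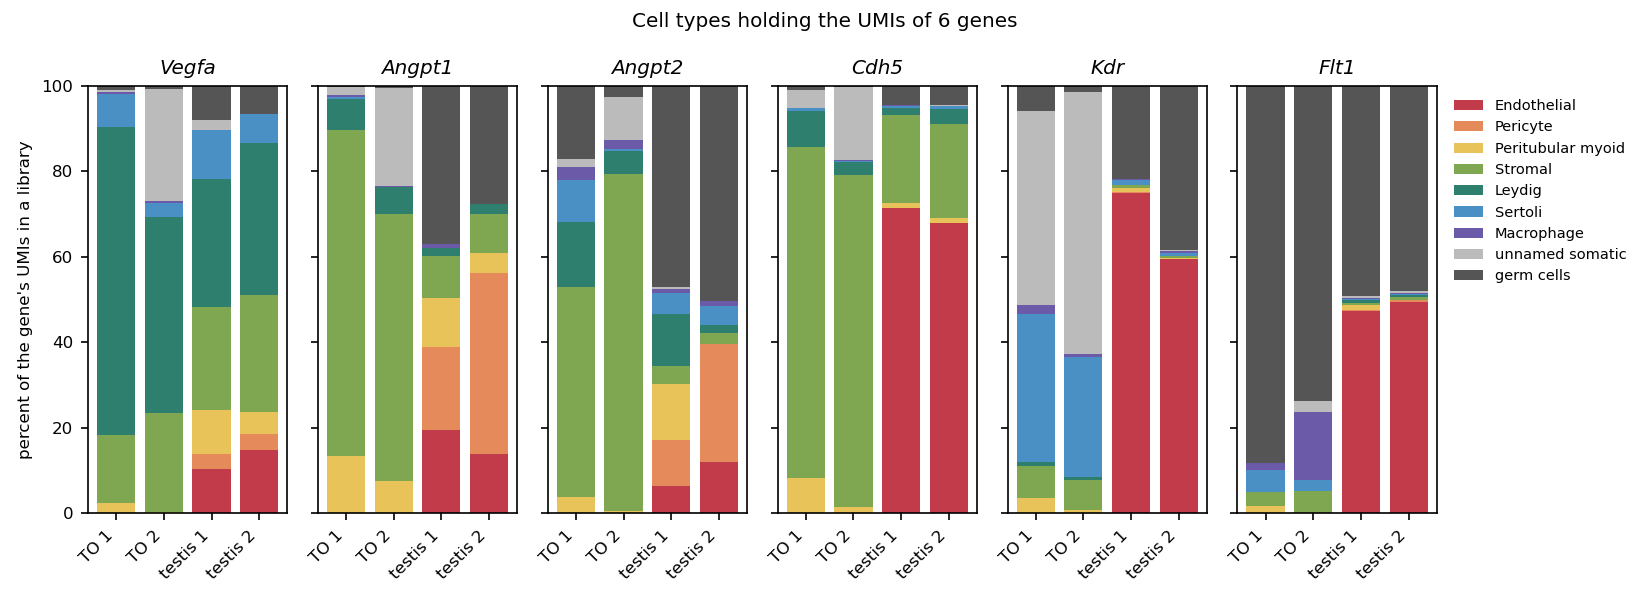
Share of each gene's UMIs (vertical axis, percent of all kept cells of a library) that each cell type held, for 6 genes in TO 1, TO 2, testis 1 and testis 2. In TOs, Leydig cells hold the largest share of Vegfa (71.8% and 45.8%) and stromal cells that of Angpt1 (76.1% and 62.4%). Cdh5 lies mostly in endothelial cells of testes (71.4% and 67.9%) and in stromal cells of TOs (77.5% and 77.6%).

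Angpt1 kept a source in TOs as well. In the testes it was highest in pericytes, at 99.2 and 158 CPM, and in endothelial cells, at 30.7 and 40.6 CPM, while stromal cells held 7.18 and 12.6 CPM. Pericytes held 19.4% and 42.5% of the Angpt1 UMIs of testis replicates 1 and 2, and endothelial cells 19.4% and 13.8%. In TOs, where no cluster took either name, stromal cells held 76.1% and 62.4% of the Angpt1 UMIs.

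Stromal Angpt1 rose in TOs, to 38.0 and 33.3 CPM. Both values were above both testis values, and the log2 fold change was 1.97 ± 0.32 (adjusted p = 0.00414, edgeR). It was the only call among 6 of the 10 genes tested in stromal cells, beside 17.7% of all 16091 genes called, 2.19% that rose and 15.5% that fell. Without testis replicate 1 the adjusted p was 0.0104 (edgeR), just past the threshold. Pericyte markers in stromal cells were at 66.9 and 71.5 CPM in TOs and at 58.1 and 99.4 CPM in testes.

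Angpt1 was also higher in each TO library in peritubular myoid cells, at 17.9 and 37.8 CPM against 7.18 and 7.88 CPM, without passing the test (log2 fold change 1.80 ± 0.49, adjusted p = 0.0172, edgeR). With libraries left out in turn, the log2 fold change ran from 1.22 to 2.29, in fits that each left 1 library in a group. In Leydig cells it was at 4.00 and 7.71 CPM against 0.56 and 1.18 CPM (2.66 ± 0.69, adjusted p = 0.0357, edgeR). Over all somatic cells Angpt1 was at 15.0 and 20.3 CPM in TOs and 6.20 and 15.0 CPM in testes (0.90 ± 0.45, adjusted p = 0.179, edgeR). Without endothelial cells and pericytes the difference was 2.62 ± 0.39 and passed (adjusted p = 0.0025, edgeR). Only the testes had cells of these names, and Angpt1 was highest there, so a larger difference was built into this step.

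Angpt2 was spread over more cell types. Over all somatic cells it was at 7.77 and 19.2 CPM in TOs and at 11.1 and 9.40 CPM in testes, with the TO libraries on either side of the testes (log2 fold change 0.57 ± 0.48, adjusted p = 0.41, edgeR). In the testes it was highest in pericytes, at 119 and 94.0 CPM, and germ cells held 47.5% and 50.3% of its UMIs. In TOs, stromal cells held 49.1% and 79.0%.

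Stromal Angpt2 was at 15.3 and 40.9 CPM in TOs and at 6.46 and 3.16 CPM in testes. Both TO libraries were higher, but they lay far apart from each other, and the log2 fold change of 2.66 ± 0.69 did not pass the test (adjusted p = 0.0286, edgeR). It passed with DESeq2 (2.62, adjusted p = 0.00193). Without TO replicate 1 the log2 fold change was 3.14, in a fit with 1 TO library that holds no spread between TOs. Among the 9 stromal clusters of each TO library it ranged from 2.48 to 43.0 CPM and from 9.48 to 103 CPM. The highest cluster, led by Clec3b and Entpd2 in TO replicate 1 and by Entpd2 and Gsn in TO replicate 2, held 123 of 269 and 183 of 1028 stromal Angpt2 UMIs. In the cluster of TO replicate 1, which had the highest Cdh5 as well, Tek stood at 9.10 CPM.

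In Leydig cells Angpt2 was at 5.25 and 6.03 CPM in TOs and 7.52 and 0.89 CPM in testes. The libraries overlapped (log2 fold change 0.36 ± 0.78, adjusted p = 0.782, edgeR). In peritubular myoid cells testis replicate 1 held 29 UMIs and testis replicate 2 none, against 21 and 7 UMIs in TOs.

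**Figure D5:**
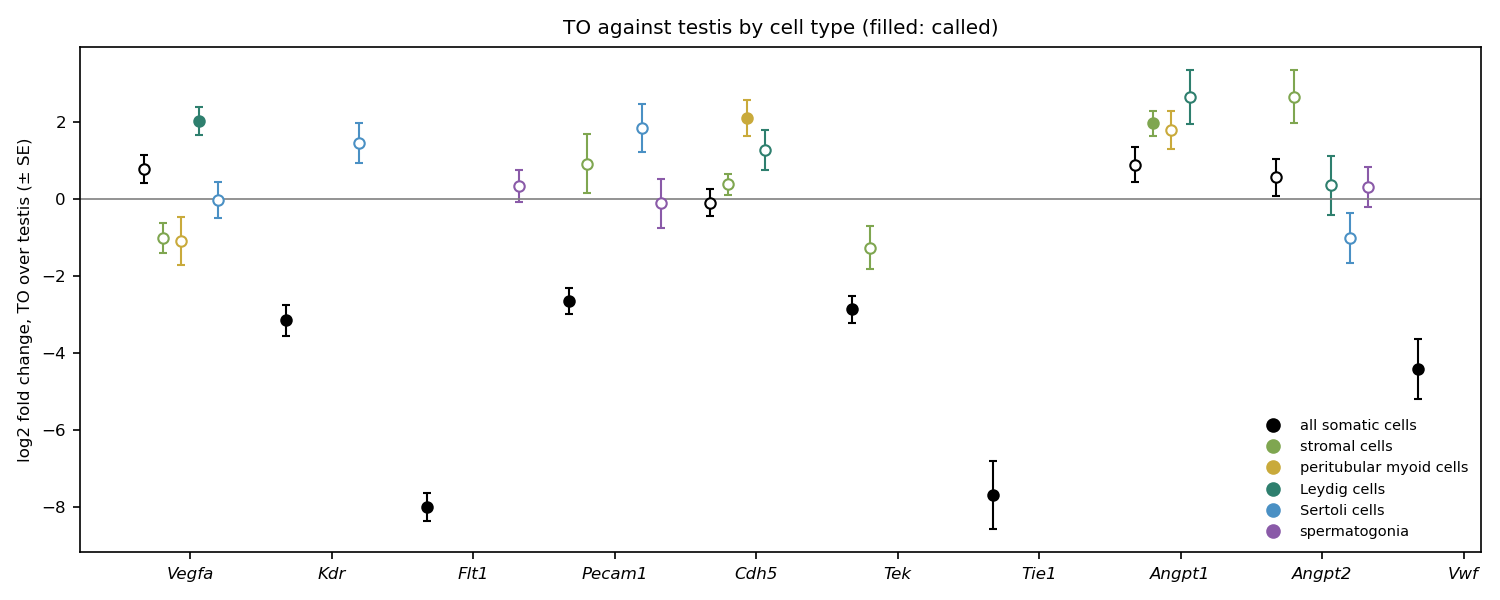
Log2 fold change of TO over testis (vertical axis, with SE) for each gene and cell type that could be tested, with filled symbols for calls. Leydig Vegfa (2.04), stromal Angpt1 (1.97) and myoid Cdh5 (2.11) are the only filled symbols above 0, and the 6 below 0 are sums over all somatic cells.

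Genes of the same pathways, taken from fixed lists, were counted over all somatic cells, where 15.4% of all genes fell and 1.93% rose. Of 12 endothelial surface and junction genes 8 fell and none rose, with a median log2 fold change of -3.72 beside 0.05 over all genes. Cldn5, Emcn, Plvap, Robo4, Clec14a, Mmrn2 and Ecscr of this list are also among the 12 endothelial markers. The count is therefore not separate from the marker sums given above. Cldn5 was at 0.02 and 0.05 CPM in TOs and 201 and 227 CPM in testes, a log2 fold change of -12.4 (adjusted p = 0.000164, edgeR). Esam, an adhesion molecule gene, was at 1.08 and 0.71 CPM against 85.2 and 75.9 CPM (-6.36). Mmrn2, which encodes a matrix protein of vessels, was at 0.89 and 0.32 CPM against 24.6 and 19.9 CPM (-5.09). In each of these genes the TO libraries were far below the testis libraries.

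Among endothelial receptors and enzymes 4 of 7 fell, beside the same 15.4% of all genes, with a median of -2.33. One was the TGF-beta co-receptor gene Eng, at 11.4 and 13.1 CPM against 66.3 and 40.1 CPM (log2 fold change -1.98, adjusted p = 0.00383, edgeR), which also fell within stromal cells (-1.24, adjusted p = 0.00656, edgeR). Of 10 endothelial transcription factor genes 4 fell, with a median of -2.03, including Sox17 (-3.39). Sox17, Sox18 and Erg of this list are also endothelial markers. Of 9 Notch and ephrin genes of vessels 3 fell, and the 9 had a median of -1.16. No gene of these 4 lists rose in the sums.

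For the ligand and other lists the background is again 15.4% of genes that fell and 1.93% that rose. None of the 4 other VEGF ligand genes (Vegfb, Vegfc, Vegfd, Pgf) was called over all somatic cells. Of 5 other angiogenic growth factor genes 1 rose and 1 fell, of 3 other VEGF receptor and co-receptor genes 1 fell, and of 2 other genes of the angiopoietin pathway 1 rose. Of 8 genes of angiogenesis inhibitors 1 rose, namely Serpinf1, which encodes pigment epithelium-derived factor, from 78.3 and 81.4 CPM in testes to 158 and 253 CPM in TOs (log2 fold change 1.52, adjusted p = 0.00902, edgeR). Of 8 hypoxia target genes 1 rose, and their median was -0.13.

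Some genes of these lists were called within the sums of a cell type. In peritubular myoid cells the VEGF co-receptor gene Nrp1 rose from 65.8 and 74.9 CPM in testes to 393 and 475 CPM in TOs (log2 fold change 2.57, adjusted p = 6.23e-05, edgeR). Cxcl12, a chemokine gene, rose from 29.3 and 26.6 to 133 and 68.2 CPM (1.79, adjusted p = 0.00313, edgeR), and Hgf, a growth factor gene, rose from 0 and 1.97 CPM in testes (2 UMIs in all) to 27.0 and 19.6 CPM in TOs (adjusted p = 0.000861, edgeR). Timp3, an inhibitor of metalloproteinases and of VEGFR2, fell from 697 and 848 to 157 and 79.3 CPM (-2.76, adjusted p = 0.000237, edgeR). All 4 separated the TO from the testis libraries. They were named because they were called, so this is no separate support. Stromal cells of TOs held Nrp1 at 396 and 466 CPM, Cxcl12 at 189 and 178 CPM, Hgf at 41.6 and 40.7 CPM and Timp3 at 106 and 56.4 CPM. How much stromal RNA the myoid sums held was not tested.

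In Sertoli cells the hypoxia targets Adm and Bnip3 rose, as 2 of 6 tested, beside 8.12% of all genes that rose. The other 4 lay between -0.87 (Ndrg1) and -0.62 (Slc2a1) on the log2 scale without passing the test, and the median of the 6 was -0.63. Bnip3 was at 36.4 and 31.9 CPM in TOs and 13.3 and 12.5 CPM in testes (log2 fold change 1.52, adjusted p = 0.00198, edgeR). Adm, which encodes adrenomedullin, was at 25.7 and 20.4 CPM in TOs and 1.33 and 0 CPM in testes (4.77, adjusted p = 0.000534, edgeR). The testes held only 3 UMIs of it, against 518 in the larger sums of TOs. Robo4, one of the 12 endothelial markers, rose in Sertoli cells to 37.0 and 39.8 CPM from 4.88 and 1.92 CPM (3.43, adjusted p = 0.000314, edgeR). In Leydig cells 0 of 6 hypoxia targets were called, beside 12.7% of all genes, with a median of 0.66 beside -0.04 over all genes. Adm had the highest value there, at 3.40 (adjusted p = 0.0651, edgeR), but with only 47 UMIs in TOs and 1 UMI in testes.

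Several of the 10 genes were read in germ cells. In the testes, spermatids held 43.2% and 45.6% of the Flt1 UMIs, at 11.99 and 9.25 CPM, and 66.9% and 62.2% of the Tek UMIs, at 12.5 and 6.81 CPM. Vwf UMIs lay in spermatids to 20.4% in testis replicate 1 and to 77.1% in testis replicate 2. Between spermatid clusters of at least 50 cells Tek ranged from 0 to 47.9 CPM and from 0 to 55.5 CPM, and Flt1 from 1.38 to 38.9 CPM and from 0 to 48.9 CPM.

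TOs had 0 and 41 spermatids, and their Flt1 lay mostly in spermatogonia, with 83.1% and 65.8% of the UMIs. Spermatogonia held Flt1 at 10.3 and 8.45 CPM in TOs and at 8.16 and 5.60 CPM in testes, without passing the test (log2 fold change 0.34 ± 0.42, adjusted p = 0.666, edgeR). None of the 3 genes testable in spermatogonia was called, beside 13.6% of 13678 genes (1.05% rose and 12.6% fell). In macrophages, none of the 10 reached the level needed for a test, beside 20.4% of 10868 genes called (3.61% rose and 16.8% fell).

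The genes whose pattern was most like the vessel genes were read from 35 sums of a cell type in a library. The mean of Kdr, Pecam1, Cdh5, Tek, Tie1 and Vwf was matched best by Car4 (Pearson r = 0.961), Sema3g, Abcb1a, Slco1a4 and Scgb3a1. Vegfa was matched best by Il1r1 (r = 0.87), Grb14 and Kitl, and Angpt1 by Foxs1 (r = 0.903), Gng11 and Sparcl1. For Angpt2 the highest value was lower, at 0.767 for Mfge8. These are descriptions across sums that share libraries and depth.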

How the data were processed

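The authors deposited raw UMI counts per gene and barcode, made with Cell Ranger 7.1.0 on mm10 per the submitters' processing notes, without normalization, and no per-sample column was left out (0). The 10 genes and the gene lists were chosen with earlier results of these data known.

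Barcodes were kept when they held 1000 to 5000 genes, no more than 20000 UMIs, and a mitochondrial share up to 10%, and the top-scoring 0.8% per 1000 barcodes of Scrublet (scanpy 1.11.5, Python 3.11.15) were removed as doublets. Each library was clustered by itself (2000 variable genes without the 10 genes, 30 principal components, 20 neighbors, Leiden resolution 2, leidenalg 0.10.2). Clusters were named after the best-scoring marker list, provided that 3 or more markers were seen in 10% of the cells. A minimum score of 0.3 and refused names for clusters whose leading genes went against them were added after the clusters were seen. Libraries held 74988295 to 119966959 UMIs.

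UMIs summed per library and cell type were tested by edgeR's quasi-likelihood method (edgeR 4.0.16 under R 4.3.3, TMM scaling, filterByExpr, p-values adjusted by Benjamini-Hochberg over all genes tested), and SE is the fold change over the root of F. The Leydig and Sertoli sums were fitted together with library as a block for the interaction. DESeq2 1.42.0 was an alternative, and the tests were tried on simulated data. Shares have exact Clopper-Pearson intervals (95%), CPM exact Poisson intervals, and a count of 0 was limited at 3 counts. All 10 genes were named, and list genes were named if called with at least 20 CPM in a condition, at most 3 per direction and list. Likeness was the Pearson r of log2 CPM over sums of at least 20 cells, among genes of at least 20 CPM in 1 sum.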

Additional observations from a re-analysis of the deposited data

Results flagged for a closer look

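The effect of the TO on Vegfa differed between Leydig and Sertoli cells by 2.37 on the log2 scale (interaction term, edgeR adjusted p = 0.00633). Vegfa was higher in both TO libraries in Leydig cells, at 47.7 and 45.6 against 7.24 and 14.2 CPM, and overlapped in Sertoli cells, at 5.77 and 5.10 against 4.44 and 8.63 CPM.

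Kdr stood at 220.0 CPM in TO replicate 1 and at 117 CPM in TO replicate 2 in the unnamed cluster led by Pax8 and Wfdc2, which entered no comparison between cell types. Both values lie far above the 2.22 and 1.92 CPM of testis Sertoli cells and below the 528 and 281 CPM of testis endothelial cells, and the difference was not tested.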

How the results depend on the processing

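Endothelial cells were rarer in TOs under all 12 alternatives of naming, clustering, filters, doublets and left-out libraries. Of 326 member values under alternatives, 284 kept direction and call, 12 gained a call, 13 lost it and 17 changed sign. Counts of genes called stayed within 1.5 times of the main count in 59 of 73 cases. When every gene with at least 1 count was kept, the counts became 5169 in Sertoli cells (main 3419), 3952 in Leydig cells (1874), 5111 in stromal cells (2852) and 2376 for the Leydig to Sertoli difference (898). When libraries were left out in turn, leaving an arm with 1 sample assumed to vary like the other, the counts ran from 1825 to 4144 over all somatic cells, 1885 to 3654 in Sertoli cells, 688 to 1702 in Leydig cells, 1276 to 3793 in peritubular myoid cells, 1197 to 2379 in spermatogonia and 241 to 1164 for the difference. The counts that moved by over 1.5 times were those without testis replicate 1 over all somatic cells (1825), in Leydig cells (688), in spermatogonia (1197) and for the difference (241, with 562 without testis replicate 2), those in Sertoli cells without TO replicate 1 (1885), TO replicate 2 (1911) and testis replicate 1 (2262), and those in myoid cells without TO replicate 1 (1545) and TO replicate 2 (1276). Each such fit has fewer samples.

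Leaving out endothelial cells and pericytes, an alternative chosen after the data were seen, took cells from the testes only. The sign then changed for Kdr (1.52, edgeR adjusted p = 0.0962), Pecam1 (1.59, edgeR adjusted p = 0.0752) and Cdh5 (1.62, edgeR adjusted p = 0.0206), and the calls of Kdr and Pecam1 as lower were lost. It also changed for Vegfa in Sertoli cells with every gene (0.14), and with DESeq2 for Pecam1 in spermatogonia (0.026) and for Kdr (-0.50) and Angpt1 (2.40) in the difference. With libraries left out in turn, log2 values crossed 0 for Cdh5 (-0.66 to 0.34) and Angpt2 (-0.27 to 1.12) over all somatic cells, Vegfa in Sertoli cells (-0.52 to 0.42), Angpt2 in Leydig cells (-0.44 to 2.62), Cdh5 in stromal cells (-0.056 to 0.58), Pecam1 (-0.61 to 0.19) and Angpt2 (-0.48 to 0.79) in spermatogonia, and Angpt1 in the difference (-1.73 to 3.41). Apart from Kdr and Pecam1 over all somatic cells, none of these genes was called in the comparison named, and the cause was not tested.

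The libraries share replicate numbers, and nothing says that a number pairs a TO with a testis. Deviations of same-numbered libraries correlated at 0.03 to 0.20. With the replicate block the counts were 4193 over all somatic cells, 4180 in Sertoli cells, 1878 in Leydig cells, 2754 in macrophages, 3585 in peritubular myoid cells, 4035 in stromal cells and 2253 in spermatogonia. With it, Angpt1 in myoid cells (1.69, adjusted p = 0.000513, edgeR) and Angpt2 in stromal cells (2.5, adjusted p = 0.0014, edgeR) were called, and no other member call changed.

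Thinning each cell to 1500 UMIs moved the differences of all 9 shares of cells toward 0 and turned none, with Vegfa in Leydig cells going from 29.6 to 4.33 percentage points. Depth limits genes near the floor: Tie1 had 2 UMIs and Flt1 17 UMIs over all TO somatic cells.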

Other observations

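Further genes of the fixed lists were called in the sums of a cell type, and some in several types. In peritubular myoid cells the transcription factor gene Gata2 fell from 25.7 and 17.7 CPM in testes to 4.22 and 1.85 CPM in TOs (log2 fold change -2.79, adjusted p = 0.00155, edgeR), and Serpinf1 rose from 56.8 and 84.7 to 181 and 169 CPM (1.25, adjusted p = 0.00471, edgeR). Gata2 was also called lower in Sertoli cells (-7.17), Leydig cells (-4.64), spermatogonia (-2.45) and all somatic cells (-3.39), so its fall was not particular to myoid cells. In testes, macrophages also held Gata2 at 26.3 and 6.35 CPM and stromal cells at 23.7 and 11.8 CPM. Somatic cells of the testes held spermatid markers as well, and the part of germ cell RNA in these Gata2 levels was not tested. Serpinf1 was also called higher in spermatogonia (3.94), and stromal cells of TOs held it at 396 and 505 CPM. In Sertoli cells Lmo2, a partner of hematopoietic and endothelial transcription factors, fell from 13.8 and 52.7 to 1.65 and 0.71 CPM (-4.46, adjusted p = 0.00165, edgeR). In spermatogonia the adhesion molecule gene Mcam rose from 27.3 and 42.7 to 67.9 and 73.4 CPM (1.00, adjusted p = 0.00758, edgeR). Pdk1, which diverts pyruvate from the mitochondria, rose from 21.7 and 33.6 to 68.8 and 49.4 CPM (1.10, adjusted p = 0.00757, edgeR). The TO and testis libraries did not overlap for any of these genes in the sums with CPM given for both groups. They were named because they were called, so this is no separate support.

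Angpt2 was also read in spermatocytes, at 24.98 and 8.17 CPM in TOs and 22.6 and 4.95 CPM in testes. In TO replicate 1, a spermatocyte cluster of 70 cells held 28 of the 48 UMIs, at 139 CPM. Vwf in TO Leydig cells came to 52 UMIs in TO replicate 1 and 5 UMIs in TO replicate 2. Markers of lymphatic endothelial cells, over all somatic cells, were at 5.94 and 9.35 CPM in TOs and 11.4 and 5.95 CPM in testes. Platelet markers were at 2.44 and 1.76 CPM against 2.29 and 2.98 CPM.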
